A study of Sparus aurata with 9 samples.

Results

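The comparison described is the liver of gilthead sea bream (Sparus aurata) after 7 days of a cortisol implant, set against the liver of control fish. It holds 6 of the 9 arrays of the series, 3 titled for day 7 and 3 titled for control, and the arrays were chosen by those titles alone. Fish of the day 7 group carried an intraperitoneal implant of 200 µg cortisol (hydrocortisone hemisuccinate) per g body weight in coconut oil. Fish of the day 14 group carried the same dose for 14 days, and their arrays entered the fit and the filter on dim probes. The labels list the controls as untreated in one place and describe controls with coconut oil alone in another, and a group without implant was sampled at day 0. Which of these the control arrays hold, and the day on which they were sampled, is not given in the sources used here. All fish were adults of 108 g mean weight held at 15 °C, and all fasted from 24 h before the experiment and throughout it. Every array carried liver RNA pooled from 2 fish, so each group stands for 3 pools of different animals, and the spread between arrays includes both animals and hybridisation.

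Cortisol is the main glucocorticoid hormone of bony fish and is released by the interrenal tissue under stress. It enters cells, binds glucocorticoid receptors and, through them, changes the transcription of target genes. In the vertebrate liver the hormone is known for raising the production of glucose and the breakdown of amino acids. The comparison asks which liver transcripts differ from control after 7 days of the implant.

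The array carried 28793 probes for 15156 sequences, which were contigs and clones of sea bream cDNA. The files do not pair these with genes. None of the 15156 names matched any of the 32006 genes of the RefSeq table of assembly fSpaAur1.1. Liver marker genes could therefore not be looked up, the labelled tissue was not checked against them, and no pathway is named. The results are given for sequences, and 4 of them are printed by their identifier. Signals are log2 of the processed spot brightness minus the 75th percentile of the array, averaged over the probes of a sequence. A value of 0 is thus the 75th percentile of the array, and a difference of 1 is a doubling of signal relative to it. Levels of different sequences cannot be set against each other, because probes differ in brightness for the same amount of RNA.

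After 7 days of cortisol, 44 of 9950 sequences tested (0.442%) differed from control at a limma adjusted p under 0.05, which is how a sequence is called below. Of these, 22 (0.221%) were higher and 22 (0.221%) were lower in the cortisol fish. With the pool number as a replicate block the count was 20, 9 higher and 11 lower. The higher sequences differed by 1.31 to 3.39 log2 units with a median of 2.30, a 4.91-fold higher signal. The lower ones differed by -3.57 to -1.28 with a median of -2.15. A change of at least 4-fold was fitted for 13 of the higher and 14 of the lower sequences. In both directions some of these sizes were taken against background signal, so their true size is uncertain. Over all 9950 sequences the median difference was 0.05 and the median size of a difference 0.37, with 1.08 at the 90th percentile. Most calls lay close to the threshold. The smallest adjusted p was 0.00702, the other 43 lay between 0.0179 and 0.0487, and 26 of the 44 were at 0.03 or above.

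**Figure D1:**
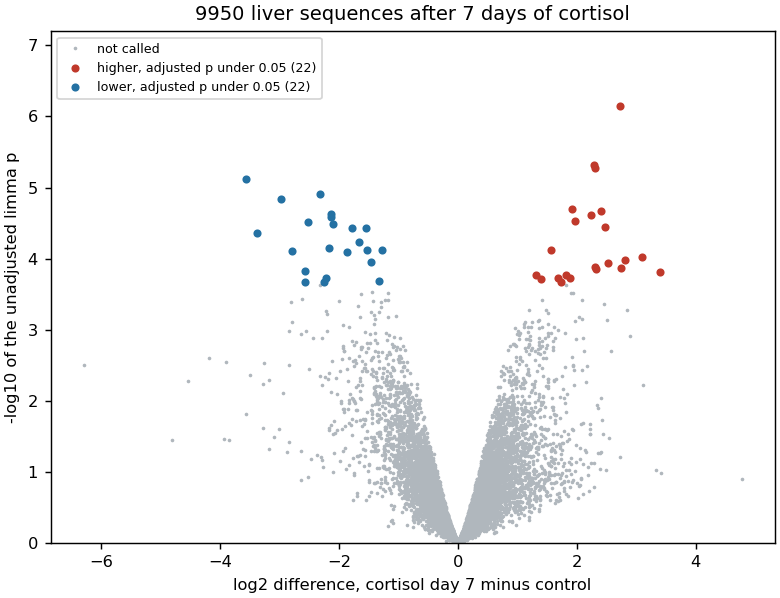
Each point is 1 of 9950 sequences, with the log2 difference of cortisol day 7 minus control on the x axis and -log10 of the unadjusted limma p on the y axis. The 22 higher (red) and 22 lower (blue) called sequences stand on either side of a cloud that reaches differences beyond theirs. Among sequences that differed by at least 3 log2 units, the median SD between pools was wider in those not called than in those called.

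At an unadjusted p under 0.05, 1500 sequences (15.1%) passed, 740 higher (7.44%) and 760 lower (7.64%). The 3 cortisol pools lay wholly above the 3 control pools in 1038 sequences (10.4%) and wholly below them in 944 (9.49%), which together is 1982 sequences (19.9%). All 44 calls were among these. Size alone did not decide a call. Of 139 sequences that differed by at least 2 log2 units, 27 were called. Of 24 that differed by at least 3, 4 were called. The 20 others were 4 higher and 16 lower, with a smallest adjusted p of 0.121. In those 20 the median SD was 1.57 between cortisol pools and 1.47 between control pools, against 0.43 and 0.52 in the 4 called ones. The smallest size called was 1.28, in a sequence with a standard error of 0.19, against a median standard error of 0.33 over all sequences. Of 1182 sequences that differed by at least 1 log2 unit, 44 were called, and 27 of these differed by at least 2. Changes between 1 and 2 log2 units were thus in general not called with 3 pools a group.

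The sequence with the largest rise among the calls was Contig2453, measured by 3 probes. Its signal was 6.40, 6.35 and 5.90 in cortisol pools 1, 2 and 3, against 1.54, 4.11 and 2.82 in control pools 1, 2 and 3. The cortisol pools lay close together and high, while the controls were spread over more than 2 log2 units below them. The means were 6.22 ± 0.28 in cortisol fish and 2.83 ± 1.29 in controls (SD, n = 3 each), a difference of 3.39 ± 0.54 (SE) or 10.5-fold (limma adjusted p 0.0457, and 0.0727 with the replicate block, which ends the call). Its 3 probes gave 3.36, 3.48 and 3.32. At day 14 its mean was 6.20 ± 0.21 (SD, n = 3), which differed from day 7 by 0.02 ± 0.54 (SE), with a limma adjusted p of 0.994 for day 7 minus day 14.

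Seabream_2006-01-03-CL1961Contig1, also with 3 probes, was the other higher sequence chosen. Its signal was 1.63, 1.20 and 0.26 in cortisol pools 1, 2 and 3, against -1.98, -0.90 and -1.63 in control pools 1, 2 and 3. The groups did not overlap, and cortisol pool 3 was the lowest of its group. The difference was 2.53 ± 0.39 (SE), or 5.78-fold (limma adjusted p 0.0401, and 0.0742 with the replicate block, no longer a call). Its probes gave 2.97, 2.32 and 2.30. The day 14 mean of 1.02 ± 0.15 (SD, n = 3) differed from day 7 by 0.01, with a limma adjusted p of 0.997.

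Contig3549, measured by 2 tested probes, was bright in controls and lower after cortisol. Its signal was 4.75, 5.57 and 3.75 in cortisol pools 1, 2 and 3, against 7.71, 7.42 and 7.32 in control pools 1, 2 and 3. The means were 4.69 ± 0.91 in cortisol fish and 7.48 ± 0.20 in controls (SD, n = 3 each). The difference was -2.79 ± 0.41 (SE; limma adjusted p 0.0320), and its probes gave -2.67 and -2.92. Cortisol pool 3 was the lowest and pool 2 the highest of the treated pools, and the controls lay together well above them. The day 14 mean was 4.18 ± 0.21 (SD, n = 3), and day 7 minus day 14 was 0.50, with a limma adjusted p of 0.633.

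Contig2540 had signals of -2.11, -3.17 and -2.69 in cortisol pools 1, 2 and 3, against -0.37, 0.25 and -0.28 in control pools 1, 2 and 3. All cortisol pools were at least 1 log2 unit below every control. The difference was -2.52 ± 0.33 (SE; limma adjusted p 0.0219, and 0.0727 with the replicate block, above the threshold). Its 3 probes gave -2.33, -1.90 and -3.35, and the third of them was well above background on 0 of the 3 cortisol arrays. At day 14 the mean of -1.33 ± 0.34 (SD, n = 3) lay between the other groups. Day 7 minus day 14 was -1.33 ± 0.33 (SE). Its limma p was 0.00290 before adjustment and 0.301 after it, above the threshold.

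**Figure D2:**
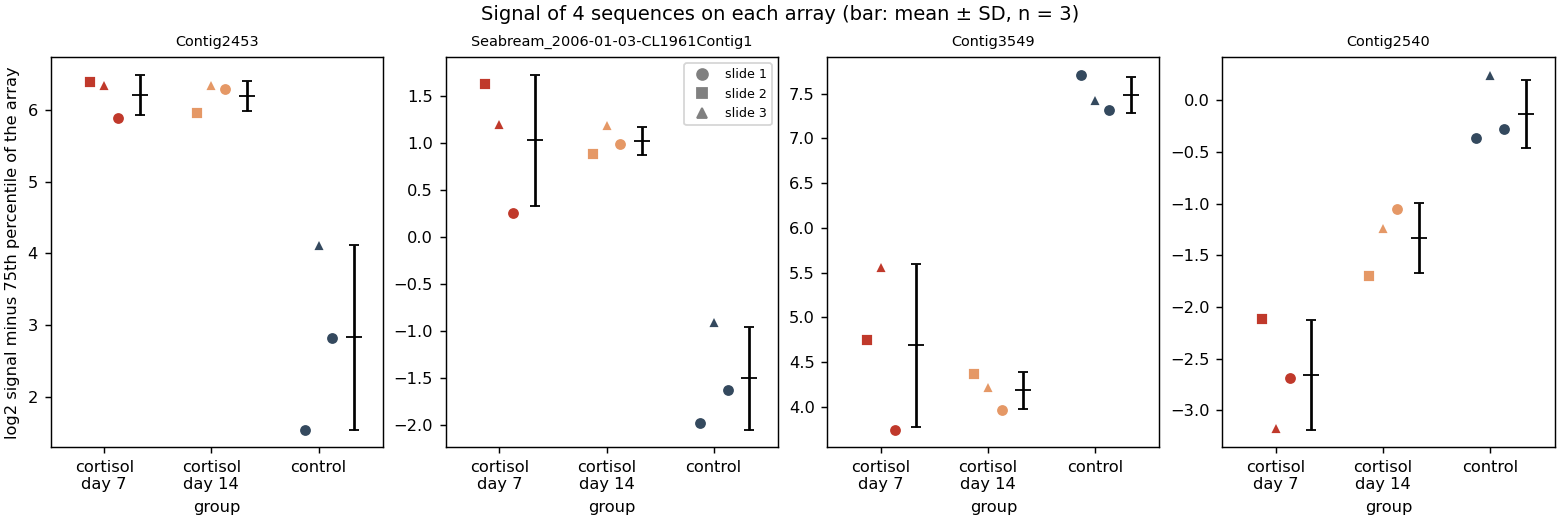
Signal of the 4 sequences (log2 minus the 75th percentile of the array) on each array of cortisol day 7, cortisol day 14 and control, with the slide as symbol and the mean ± SD of 3 pools beside the points. Day 7 and control arrays do not overlap in any panel, the controls of Contig2453 are spread from 1.54 to 4.11, and for Contig2540 day 14 lies between the other groups.

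Other called sequences are described without identifier. The smallest p belonged to a sequence read by 1 probe, with 1.47, 1.23 and 1.84 in cortisol pools 1, 2 and 3, against -1.34, -1.06 and -1.22 in control pools 1, 2 and 3. Its difference of 2.72 had a limma adjusted p of 0.00702, or 0.0423 with the replicate block. Its 3 day 14 arrays, at 0.97, 0.89 and 0.83, lay between the day 7 and control arrays. The deepest called fall, also read by 1 probe, was -3.57 with a limma adjusted p of 0.0187, or 0.0423 with the replicate block. Its signal was -2.19, -3.60 and -2.53 in cortisol pools 1, 2 and 3, against 0.82, 0.92 and 0.64 in control pools 1, 2 and 3, and the cortisol pools varied more than the controls did.

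Some calls set a measured signal against the background. Among the 44, 3 higher sequences were at the background on every control array, and 7 lower ones were at it on every cortisol array, which means not well above background there. Their fitted differences were 1.74 to 2.74 log2 units in size for the 3 and 1.46 to 3.38 for the 7. They are taken against background signal, so their true size is uncertain. Within the comparison, all 10 passed the filter on dim probes only through arrays of the group where they were high. Some had fewer than 3 such arrays there, so day 14 arrays were needed for them as well. All 10 were picked as at the background in the other group, which fixes their direction, so their number supports nothing. An example of such a rise, picked after its values were seen, had -2.27, -1.62 and -1.59 in cortisol pools 1, 2 and 3, all well above background, against -4.72, -4.04 and -3.93 in control pools 1, 2 and 3, none of them so. An example of such a fall, picked likewise, had -4.86, -5.18 and -4.27 in cortisol pools, none well above background, against -1.41, -1.39 and -1.38 in control pools, all of them well above it. Of the other 34 calls, 3 higher and 4 lower ones were well above background on only 1 or 2 arrays of their dimmer group. The remaining 27, 16 higher and 11 lower, were well above it on all 6 cortisol and control arrays, as were 6896 of all 9950 tested sequences. Over all tested sequences, 5 were well above background on all 3 cortisol arrays and on no control array, and 31 showed the opposite. Within the comparison, these too passed the filter only through the group where they were high, although day 14 arrays could count toward it as well. Their direction is fixed by how they were picked, so these counts support nothing either. The arrays differed in sensitivity at the same time: 7838 to 9345 sequences were well above background on a cortisol array and 8248 to 9557 on a control array. The part of that difference in these counts was not tested.

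A single probe carried 11 of the 22 higher calls and 9 of the 22 lower ones. In all 11 higher and all 13 lower sequences with 2 or more tested probes, every probe had the direction of the mean. Among all 4433 sequences with 2 or more tested probes the share was 72.8%, but calls were made on the mean of those probes, so this agreement is a description. Of the 44, 14 were cDN clones (0.283% of 4945 tested), 15 carried plain contig numbers (0.616% of 2435) and 14 were contigs with the prefix Seabream (0.628% of 2229). The last came from the remaining 341 sequences.

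**Figure D3:**
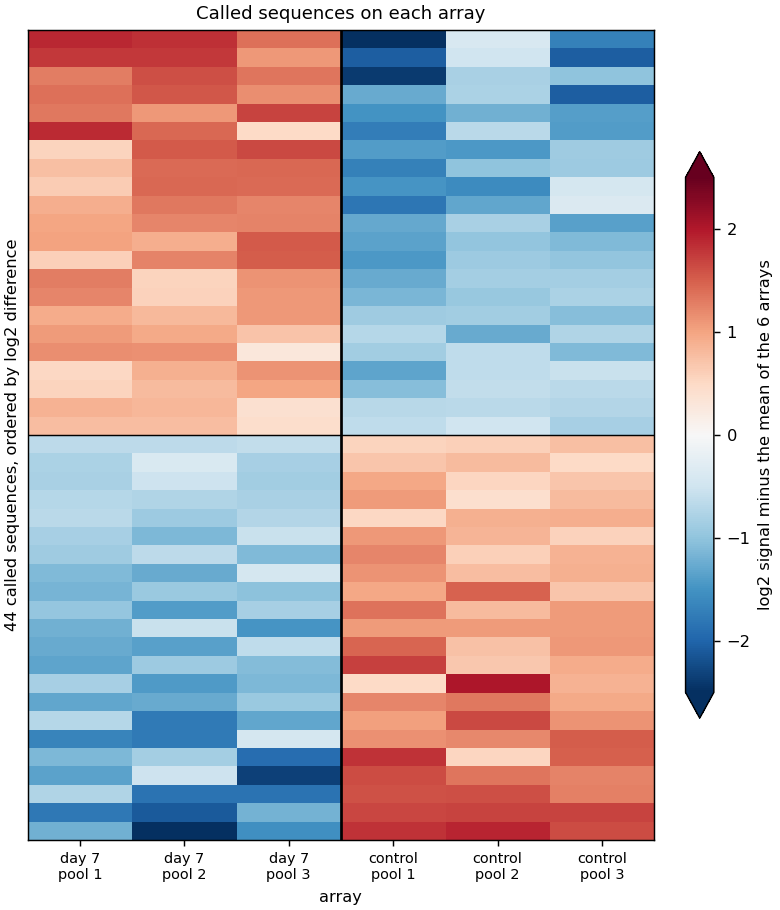
Signal of the 44 called sequences (rows, ordered by log2 difference) on the 3 cortisol day 7 and 3 control arrays (columns), as log2 minus the mean of the 6 arrays. The 22 higher sequences are red in every cortisol pool and blue in every control pool, and the 22 lower ones the reverse, as the choice by p makes nearly certain.

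The cortisol pools shared the response to a similar degree. Relative to the mean of the controls, the 22 higher sequences had medians of 2.05, 2.36 and 2.38 in cortisol pools 1, 2 and 3. The 22 lower ones had medians of -2.12, -2.08 and -2.04. These sequences were chosen on the same pools, and a call by p favours pools that lie close together. The similar medians are therefore a description. Relative to the cortisol mean, the higher sequences had medians of -2.53, -2.04 and -2.05 in control pools 1, 2 and 3. The SD was larger between control pools than between cortisol pools in 11 of these 22 sequences.

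Over all sequences the arrays did not separate by treatment. The median absolute log2 difference between 2 arrays was 0.35, 0.57 and 0.44 within the cortisol group. Within the control group it was 0.26 for pools 1 and 3, which lay on the same slide, and 0.53 and 0.46 for their pairs with pool 2, on another slide. Between cortisol and control arrays it ran from 0.39 to 0.65. The smallest value between the groups joined cortisol pool 2 and control pool 2, which shared a slide, and the largest joined cortisol pool 3 and control pool 1, which also did. Cortisol pool 3 was the dimmest array of the comparison. The 75th percentile of its processed signal was 117, against 226 and 369 in cortisol pools 1 and 2, and 258, 258 and 394 in control pools 1, 2 and 3.

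**Figure D4:**
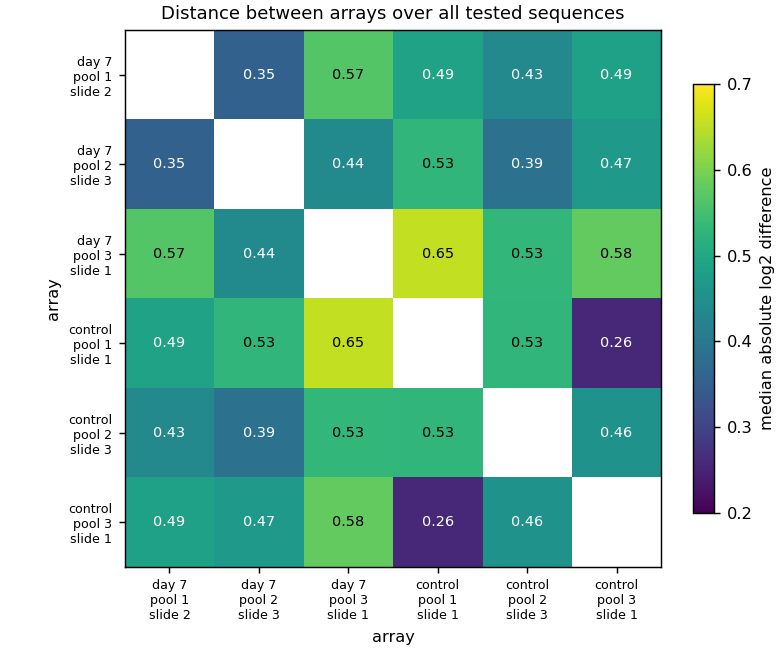
Median absolute log2 difference over 9950 sequences between each pair of the 6 arrays, with the slide of each array given on the axes. The smallest value, 0.26, joins control pools 1 and 3 on slide 1, and cortisol pool 3 is far from the control arrays of its own slide, at 0.65 and 0.58.

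Spread between pools was larger than spread between spots. Some probes were printed 15 times on each array, and 45 of them were well above background on all 9 arrays. Their median SD between spots of 1 array was 0.11 on cortisol arrays and 0.11 on control arrays, against 0.35 between cortisol pools and 0.33 between control pools. Over all sequences the median SD was 0.39 between cortisol pools and 0.35 between controls, and it was larger among cortisol pools in 54.1% of sequences.

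The calls depended on the arrays in the fit. With the day 14 arrays left out, which leaves 6 arrays, 0 sequences were called in limma, while 1335 had an unadjusted p under 0.05. The differences are the same in that fit, but the spread is estimated from fewer arrays. Without control pool 1 or control pool 3 there were also 0 calls in limma, with 971 and 950 sequences at an unadjusted p under 0.05. Without control pool 2 there were 131. Leaving out cortisol pool 1, 2 or 3 gave 13, 8 and 22, and leaving out day 14 pool 1, 2 or 3 gave 35, 7 and 1.

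**Figure D5:**
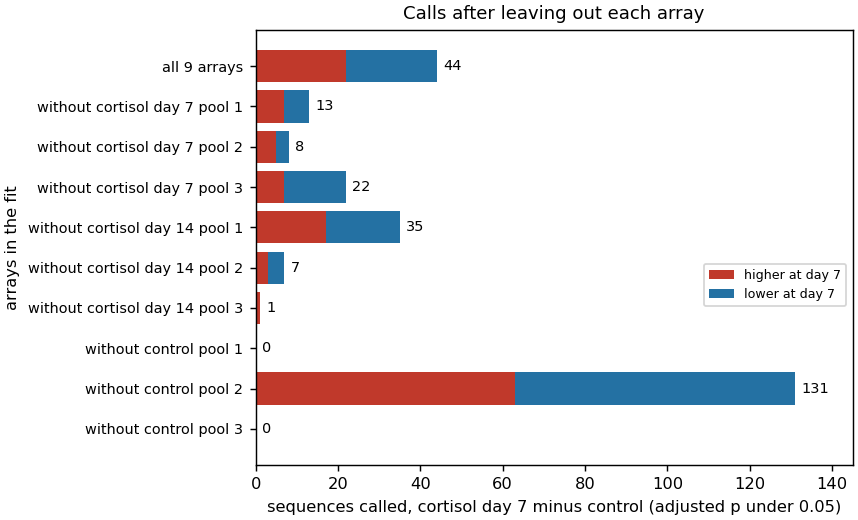
Number of sequences called for cortisol day 7 minus control (x axis, higher in red and lower in blue) with all 9 arrays and with each array left out in turn. The count runs from 0 without control pool 1 or 3 to 131 without control pool 2.

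Slides 1 and 3 each held arrays of both groups. Slide 1 held control pools 1 and 3 and cortisol pool 3, and slide 3 held pool 2 of each group. Slide 2 held cortisol pool 1 and no control, so slide and treatment were not balanced. Scan day 1 held the arrays of slide 1 alone, so the blocks on slide and on scan day overlap. Within slide 1 all 22 higher and all 22 lower sequences had the direction of the whole comparison, with medians of 2.34 and -1.95. Within slide 3 they did so with medians of 2.13 and -2.01. The calls had been made with these same arrays, and the groups do not overlap in any called sequence. The direction within a slide was thus fixed in advance and supports nothing. Treating slide as a fixed block, 11 sequences were called, 8 of them among the 44, and with the 2 scan days as a block 21. With slide as a random block, at a fitted correlation of 0.154, 57 were called and all 44 were among them. Of the 20 sequences called with the replicate block, 17 were among the 44. Within slides 1 and 3, Contig2453 differed by 3.71 and 2.24, Seabream_2006-01-03-CL1961Contig1 by 2.06 and 2.10, Contig3549 by -3.77 and -1.86 and Contig2540 by -2.37 and -3.42. Each of the 4 lost its call with slide as a fixed block, with limma adjusted p of 0.0814, 0.0703, 0.0631 and 0.0746 in the same order. Each kept it with slide as a random block, at 0.0331, 0.0252, 0.0205 and 0.0161. With the replicate block Contig3549 was the one of the 4 that kept its call, at a limma adjusted p of 0.0497.

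No sequence was called between day 7 and day 14 with limma. Of 9950 sequences 0 (0%) passed, the smallest adjusted p was 0.206, and 1144 (11.5%) had an unadjusted p under 0.05, 506 higher (5.09%) and 638 lower (6.41%) at day 7. Testing each probe on its own called 1 probe, lower at day 7, and array weights called 998 sequences, 465 higher and 533 lower. For the 22 sequences called higher at day 7, the difference of day 14 from the same controls ran from 0.56 to 3.37 with a median of 1.58, beside the median of 2.30 at day 7. For the 22 called lower it ran from -3.46 to -0.13 with a median of -1.32, beside -2.15. These sequences were chosen on day 7 values, and both comparisons use the same control arrays, so the smaller medians at day 14 are not a test of a difference in time.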

How the data were processed

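Liver RNA was hybridised to 9 one-colour (Cy3) Agilent arrays. Per the file headers, the spot intensity was made by the authors with Agilent Feature Extraction 10.7.3.1, background-subtracted and detrended array by array. Arrays were not scaled to each other in these files. The authors' deposited value table, in which NULL marks signals of 0 or below, holds log2 of the background-subtracted intensity, except for cortisol day 7 pool 3, whose column is a deposited score equal to a logarithm to base 20. This was found by setting the table against the scanner values, and the table served only as an alternative. Gene annotation of the probes was not given in the sources used here.

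The log2 processed signal minus the 75th percentile over 43803 non-control spots was used. Spots flagged as outliers were left out and spots were averaged per probe. A probe needed at least 50% of its spots well above background on 3 or more arrays. Of the 18278 that met this, 65 without an unflagged spot on some array were left out. The other 18213 were averaged to 9950 sequences, fitted with limma 3.58.1 in R 4.3.3 (lmFit, eBayes, all 3 groups, 6 residual degrees of freedom) and adjusted by Benjamini-Hochberg. No spot was saturated. Figures were drawn with matplotlib 3.10.9.

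Groups come from the sample titles. Same-numbered cortisol day 7 and control pools deviated weakly together from their group means, with correlations of 0.10, 0.11 and 0.29 across sequences for pools 1, 2 and 3. Pairs with unlike numbers ran from -0.19 to 0.04. Among them, cortisol pool 3 and control pool 1, which share slide 1, had -0.07. Deviations from a group mean cancel within the group, so the like and unlike pairs are not independent. The cortisol day 7 and control arrays of pool 2 share slide 3, and those of pool 3 share slide 1. Those of pool 1 lie on slides 2 and 1. Pool number and slide thus overlap in part. Values with the replicate block are therefore given beside the results whose call or count they change. The members, sequences and tests were chosen with earlier results of these data known. The 4 identifiers are the 2 largest called differences in each direction among sequences with at least 2 tested probes of the same sign and at least 1 probe well above background on every cortisol day 7 and control array. The gene lists prepared for the comparison were not used, since no names were paired. Normexp was run on median signals because the files used here hold no mean signal. The number of arrays limits the precision.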

Additional observations from a re-analysis of the deposited data

How the results depend on the processing

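The count of 44 called sequences for cortisol day 7 against control stayed within 1.5 times under 8 of the alternatives that keep all arrays, from 31 to 65. The number tested was not the same in all 8, so like counts are not like shares. Each probe on its own gave 52 of 18213 probes. Probes well above background on all 3 arrays of day 7 or of control gave 63 of 7872 sequences, against 44 of 9950. Similar counts did not always hold the same sequences. When probes had to exceed background on all 9 arrays, 5336 sequences were tested and 65 called, 23 of them among the 44. That filter leaves some of the 44 untested. Normexp shared 24 of its 31 calls with the 44, and an intensity trend with robust variance 39 of its 54. The remaining settings among the 8 that count sequences shared 33 to 44. The count did not stay within 1.5 times under the following, and the cause was not tested. The median of the probes of a sequence gave 28, quantile normalization 17, slide as a fixed block 11, scan day as a block 21 and the replicate block on pool number 20. From the values tabulated by the authors, 4 of 9458 tested sequences were called. No filter on dim probes gave 0 of 15153 tested in limma, with 1151 sequences at an unadjusted p under 0.05. The fit on 6 arrays gave 0 of 9950, with 1335. Array weights gave 4246 of 9950. Leaving out single arrays gave 0 to 131. A threshold of 0.1, chosen after seeing the data, gave 97. For day 7 against day 14 the count of 0 became 1 with each probe on its own, 998 of 9950 with array weights and 0 to 1 with single arrays left out. It was 0 under the other alternatives, the replicate block included. Dropping the filter moved the median difference of all sequences to 0.20. The 4 printed sequences kept their direction in every alternative, the values within a slide included. They were chosen for large called differences, and their day 7 and control arrays do not overlap. Leaving out arrays or comparing within a slide could thus not turn the sign, so this is a description. Of 28, 28, 27 and 28 tested alternatives, the call was lost in 19 for Contig2453, 15 for Seabream_2006-01-03-CL1961Contig1, 12 for Contig3549 and 12 for Contig2540. Over these tested alternatives, which leave out the untested values within a slide, their differences ran from 2.75 to 4.03, from 1.75 to 2.97, from -3.23 to -1.99 and from -3.35 to -1.24, and their limma adjusted p from 0.000230 to 0.162, from 0.000126 to 0.161, from 0.000936 to 0.161 and from 0.000135 to 0.119.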

Other observations

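The largest differences of the comparison were not among the calls. A sequence read by 3 probes had 8.47, 7.56 and 7.86 in cortisol pools 1, 2 and 3, against -5.20, 8.21 and 6.58 in control pools 1, 2 and 3. It was not well above background in control pool 1 and was so on every other array, day 14 included, where it had 6.87, 7.52 and 8.28. All 3 of its probes were low in control pool 1, at -5.12, -5.50 and -4.99, while the lowest of the other 8 arrays was 6.58, 6.56 and 6.59 for the same probes. Its difference of 4.77 ± 2.85 (SE) had a limma adjusted p of 0.442. The most negative measured difference, -6.29 ± 1.57 (SE) with a limma adjusted p of 0.133, belonged to another sequence of 3 probes. It had 1.52, -2.75 and -4.15 in cortisol pools 1, 2 and 3, against 5.06, 3.51 and 4.93 in control pools 1, 2 and 3, and -3.16, 0.98 and 1.75 in day 14 pools 1, 2 and 3. It was not well above background in cortisol pool 3 and in day 14 pool 1, so the difference is partly against background signal. The SD was 2.95 between cortisol day 7 pools and 0.86 between controls.

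Sequences that stood apart in a single array were few. A gap of at least 5 log2 units between an array and the nearest of the other 8 was found below them in 3 of 9950 sequences and above them in 1. The array was cortisol day 7 pool 1 for 2 of the low cases, control pool 1 for the third, and cortisol day 7 pool 3 for the high case. The high case was read by 1 probe, and its other 8 arrays were themselves spread from -5.51 to 4.185. The widest gap, in control pool 1, was 11.8. An SD of at least 2 between pools was found for 61 sequences in the cortisol group and for 88 in the controls, and for 16 in both. This search was chosen after the values were seen.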
